A study of Mus musculus with 4 samples.

Results

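Endothelial cells of irradiated mouse hindlimb muscle, taken 56 days after irradiation, were chosen by the markers below and ranked by their own Cdkn1a signal, and the top-ranked cells were set against an equal share at the bottom. Of the 7086 barcodes in the 4 libraries, 1030 belonged to the irradiated 56-day library (IR 56-days). A barcode counted as endothelial with at least 2000 unique molecular identifiers (UMIs), at most 20% mitochondrial UMIs, at least 3 UMIs summed over Pecam1, Cdh5, Egfl7 and Cldn5, and 0 UMIs of Ptprc, Pdgfra and Pax7. These steps left 741, 736, 385, 373, 370 and finally 368 barcodes, with the 3 exclusion genes applied in that order. The 368 were ranked by Cdkn1a UMIs per 10,000 UMIs into 123 Cdkn1a-low, 122 middle and 123 Cdkn1a-high cells.

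All libraries came from male C57Bl/6J mice that received X-rays to one hindlimb at 5 weeks of age, in 3 fractions of 8.2 Gy, under a lead shield for the rest of the body. The other, shielded limb of such mice was the control (CON), so control tissue had shared the circulation of an irradiated animal. Limbs were taken 24 hours after the last fraction or 56 days after irradiation, and each library pooled 3 limbs of one condition and time. Cells were sorted as mononucleated, Hoechst-stained and negative for a dead-cell dye before droplet sequencing. With 1 library per group and no label that ties a cell to a limb, no difference was tested. Each interval below is a 95% exact interval for counting error only, and does not cover the spread between mice.

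Cdkn1a encodes p21, an inhibitor of cyclin-dependent kinases that halts the cell cycle. The transcription factor p53, stabilised by DNA damage, induces Cdkn1a together with genes for apoptosis, DNA repair, metabolism and its own restraint, among them the ubiquitin ligase gene Mdm2. Lasting p21 is one of the marks used for senescent cells. Muscle endothelium is mostly capillary, with smaller arterial and venular parts that express their own sets of genes, and vessel lining is a known target of radiation injury.

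p53 binds DNA at the p53 consensus motif, a pair of adjacent copies of a 10-base unit. The motif was searched on both strands in the RefSeq promoters of GRCm38.p6 (mm10), each running from 250 bases before to 50 after a start, with up to 2 mismatches outside the C and G core of each copy. A match is a run of letters and not a measured binding site. Of 32851 promoters 107 (0.326%) held a match, and of the 40 genes of the p53 target list used below, 31 had an entry and 3 held a match (Ccng1, Ckap2 and Gtse1). Among the promoters of genes at least 1.5-fold higher in the Cdkn1a-high cells 4 of 411 (0.973%) held one, and among those of genes at least 1.5-fold lower 0 of 306. Over all measured genes, defined below, it was 15 of 4361 (0.344%). These counts are too few to tell the groups apart, and no difference was tested. The windows shown are those of Cdkn1a, the gene that ranked the cells, and of 3 genes whose values follow. Capitals mark the 20 bases of the match, and all are written 5′ to 3′ on the strand of the gene.
Cdkn1a, chr17:29090888-29090987, plus strand: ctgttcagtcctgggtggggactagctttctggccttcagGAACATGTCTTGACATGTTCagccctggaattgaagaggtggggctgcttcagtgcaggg
Ccng1, chr11:40755422-40755521, minus strand: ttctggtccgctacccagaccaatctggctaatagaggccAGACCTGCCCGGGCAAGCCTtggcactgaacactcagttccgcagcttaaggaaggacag
Rps27l, chr9:66946256-66946355, plus strand: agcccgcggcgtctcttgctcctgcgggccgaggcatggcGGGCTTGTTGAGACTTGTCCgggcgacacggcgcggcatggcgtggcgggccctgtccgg
Ckap2, chr8:22185963-22186062, minus strand: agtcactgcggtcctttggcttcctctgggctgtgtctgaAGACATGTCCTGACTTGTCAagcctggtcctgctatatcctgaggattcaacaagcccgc
The match in Cdkn1a, Ccng1 and Rps27l had 1 mismatch to the motif, and that in Ckap2 had 2.

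The Cdkn1a values chose the cells and are given as a description. In IR 56-days 51 of the 368 endothelial barcodes (13.9%) had no Cdkn1a UMI, the median was 11.8 per 10,000 and the highest was 106.7. The last cell in the low group had 6.37 per 10,000 and the next 6.57, while the last cell under the high group had 18.6 and the first in it 18.9, so the borders cut a continuous range. Low cells held 0 to 5 Cdkn1a UMIs each and high cells 4 to 61. In sums, Cdkn1a (ENSMUSG00000023067, chromosome 17, 29090976 to 29100727, plus strand, mm10) had 140, 804 and 1755 UMIs in the low, middle and high cells, or 230.3, 1211 and 2947 CPM, which is UMIs per 1000000 UMIs of the group. The 565 endothelial barcodes of CON 56-days had 161 CPM, and 68.1% of them had no Cdkn1a UMI. The low cells of the irradiated library were thus 1.43-fold above the whole control endothelium in this gene, and the high cells 18.3-fold. In 45 B cell barcodes of the same library, which had a median of 2944 UMIs, Cdkn1a, Gdf15, Phlda3 and Ltc4s had 0 UMIs, which allows up to 26.7 CPM of each. These barcodes were chosen to have 0 UMIs of Pecam1, Cdh5, Egfl7 and Cldn5, so this limit may understate stray endothelial RNA.

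**Figure D1:**
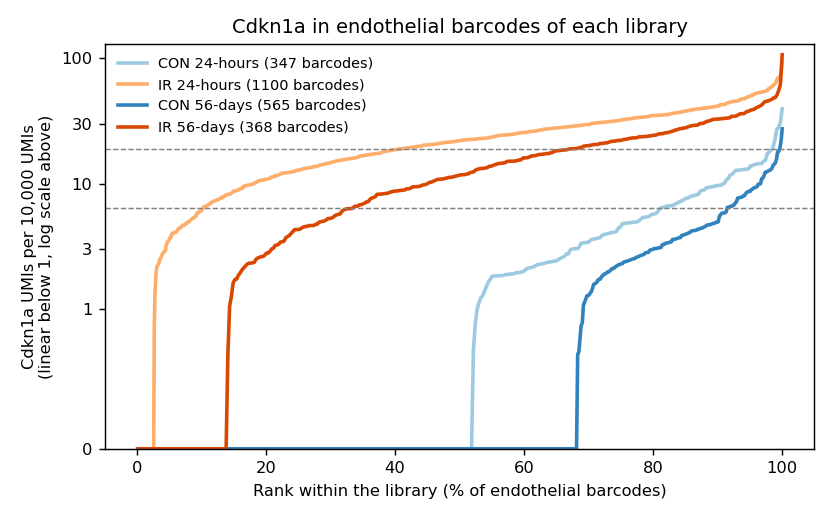
Cdkn1a UMIs per 10,000 UMIs (vertical axis, linear below 1 and logarithmic above) against the rank of each endothelial barcode within its library (horizontal axis, percent). Dashed lines mark the borders 6.37 and 18.9 of the IR 56-days groups, where its curve shows no step; its median of 11.8 lies below the 22.1 of IR 24-hours, and its highest cell (106.7) above that library's (91.8).

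The groups were alike in depth. Median UMIs per cell were 4279, 4448.5 and 4203 in the low, middle and high cells, median genes 1940, 2055.5 and 1920, and the groups summed to 607913, 663954 and 595610 UMIs. The endothelial label held in both: all 20 genes of an endothelial list outside the gate were measured, with a median log2 ratio of high over low of 0.12, and Kdr, a VEGF receptor gene, had 568, 735 and 771 UMIs. Mitochondrial UMIs were not alike, with medians of 2.96%, 2.25% and 1.90%. Some barcodes carried RNA of other cell types: 16 of the 368 (8 low, 5 middle, 3 high) had at least 20 smooth muscle UMIs, 30 haemoglobin UMIs or 5 Schwann or lymphatic UMIs, a definition set after the data were seen. No endothelial barcode sequence was shared between libraries, and 11 of all barcodes were.

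A gene was counted as measured with at least 50 UMIs over low and high cells, and as higher or lower from a 1.5-fold difference in CPM. Of 4210 measured genes, 402 (9.55%) were higher in the Cdkn1a-high cells and 282 (6.7%) were lower, with a median log2 ratio of 0.07. These percentages are the background for the counts of listed genes. Higher genes made up 58.8% of the called genes, but 44.5% when the median gene ratio was set to 1 in place of equal totals.

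Genes induced by p53 were higher in the Cdkn1a-high cells across the list. Of the 40 listed targets without Cdkn1a, 34 had a higher CPM in the high cells and 6 a lower one. Of the 21 that were measured, 17 were higher and 0 lower, with a median log2 ratio of 1.08. In single cells, the summed p53 targets had medians of 21.5, 34.7 and 46.4 UMIs per 10,000 in the low, middle and high cells. The lowest to the highest cell ran from 0 to 64.9 in the low group, from 9.82 to 121 in the middle and from 11.6 to 183.1 in the high, so the groups overlapped widely.

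**Figure D2:**
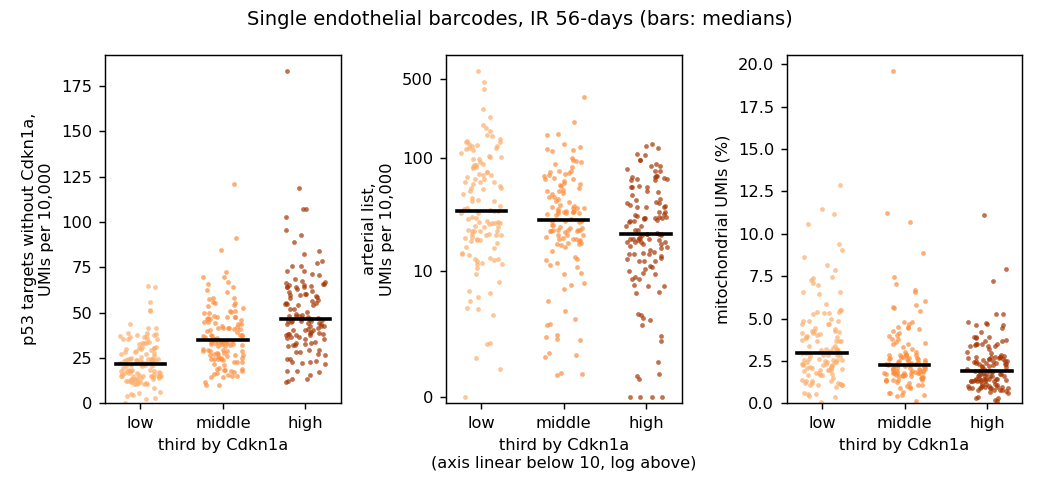
Each point is 1 endothelial barcode of IR 56-days, by Cdkn1a group, with bars at the medians; the panels show summed p53 targets without Cdkn1a and the summed arterial list, both in UMIs per 10,000 UMIs, and mitochondrial UMIs in percent. The p53 sum is higher and the other measures are lower toward the Cdkn1a-high cells, with overlap in every panel.

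Among the secreted and signalling targets, Gdf15 (chromosome 8, 70629393 to 70632456, minus strand), which encodes a circulating stress cytokine, had 13, 136 and 164 UMIs in the low, middle and high cells. High cells were 12.9-fold (7.32 to 24.7) above low cells. The log2 ratio of 3.64 was 2.55 with every cell thinned to 2000 UMIs and ranked again on the thinned counts. It was 4.75 in the 106 cells without arterial and venular UMIs, also ranked again, where the low cells held 2 UMIs. Gdf15 was found in 4 low, 29 middle and 53 high cells, so most cells of the high group showed none at this depth. Phlda3 (chromosome 1, 135766119 to 135769136, plus strand), which encodes a repressor of Akt, had 135, 320 and 433 UMIs, a ratio of 3.27 (2.69 to 4.00), and was found in 67, 100 and 105 cells. With every cell thinned to 2000 UMIs but left in its original group, Gdf15 was found in 3.25%, 15.6% and 27.6% of the low, middle and high cells. Phlda3 was then found in 34.1%, 57.4% and 65.9%. Eda2r, the receptor gene for ectodysplasin A2, had 20, 31 and 46 UMIs, a ratio of 2.35 (1.36 to 4.19). Fas, the death receptor gene, had 40, 38 and 45 UMIs, and its ratio of 1.15 (0.733 to 1.80) had an interval that holds 1.

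Apoptosis genes of the list were higher as well. Bax (chromosome 7, 45461697 to 45466898, minus strand), which permeabilises the mitochondrial outer membrane, had 264, 585 and 683 UMIs, a ratio of 2.64 (2.29 to 3.06). Bbc3, which encodes PUMA, had 20, 31 and 52 UMIs, a ratio of 2.65 (1.56 to 4.69). Aen, a nuclease gene, had 24, 56 and 70 UMIs, with a ratio of 2.98 (1.85 to 4.95). On a separate list of apoptosis and survival genes, 1 of 9 measured was higher and 0 lower, with a median log2 ratio of 0.26. That gene was Bcl2l1, which encodes the survival protein BCL-xL and had 24, 64 and 63 UMIs, a ratio of 2.68 (1.65 to 4.48).

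The feedback and growth control genes followed in the same direction. Mdm2 had 44, 63 and 67 UMIs, a ratio of 1.55 (1.05 to 2.33), while Ccng1, which encodes cyclin G1, had 33, 50 and 84 UMIs, a ratio of 2.60 (1.72 to 4.01). Trp53inp1, a p53 cofactor gene, had 35, 62 and 85 UMIs, a ratio of 2.48 (1.65 to 3.79). Zmat3, an RNA-binding protein gene, had 23, 45 and 70, a ratio of 3.11 (1.92 to 5.21), and Dcxr, a carbonyl reductase gene, had 46, 76 and 126, a ratio of 2.80 (1.98 to 4.01). Sesn2, Ei24, Ier5 and Btg2 had ratios of 1.85, 2.13, 2.03 and 1.58. Plk2, a polo-like kinase gene, stayed under the limit at 1.22 (0.984 to 1.52). Ckap2, a spindle protein gene, had 0, 6 and 40 UMIs, of which 17 came from 1 high cell, and fell under the 50-UMI limit.

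Genes around the list were read in the same way. Trp53 itself had 21, 50 and 61 UMIs in the low, middle and high cells, a ratio of 2.96 (1.78 to 5.13). Chek2, a DNA damage kinase gene, had 29, 58 and 61, a ratio of 2.15 (1.36 to 3.47). Rps27l, a ribosomal-protein-like p53 target that was named after its values were seen, had 417, 635 and 767, a ratio of 1.88 (1.66 to 2.12). On a list of senescence regulators that holds Trp53, 2 of 8 measured genes were higher and 0 lower. Among the other kinase inhibitor genes, Cdkn1b (p27) and Cdkn1c (p57) stayed under the 1.5-fold limit. Cdkn1b had 41, 35 and 44 UMIs, a ratio of 1.10 (0.699 to 1.72), and Cdkn1c 167, 163 and 208, a ratio of 1.27 (1.03 to 1.57). Cdkn2a, which encodes p16 and is the other common senescence marker, had 0 UMIs in all 368 cells, an upper limit of 1.98 CPM. On a list of secreted senescence factors 0 of 11 measured genes were higher and 4 were lower, among them Igfbp4 with 152, 57 and 40 UMIs and Timp2 with 83, 73 and 28. Of 6 measured cell cycle genes, 0 were called in either direction.

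Against control endothelium of the same time point, the low cells were not at the control level of these genes. Of 7220 genes measured between the low cells and all CON 56-days endothelium, 10.8% were higher in the low cells and 17.1% lower. Among p53 targets 12 of 24 measured were higher in the low cells and 4 were lower, a median log2 ratio of 0.56. The high cells set against the same control had 19 of 27 higher and 0 lower, a median of 1.52, beside 12.4% higher and 16.5% lower over all genes. Both comparisons share the control library. Phlda3 had 46.1 CPM in the control and 222.1, 482.0 and 727.0 CPM in the low, middle and high cells. Bax had 185.2 CPM in the control and 434.3, 881.1 and 1147 CPM in the 3 groups. Phlda3 and Bax in the low cells were 4.82-fold (3.68 to 6.24) and 2.35-fold (2.01 to 2.73) above the control.

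**Figure D3:**
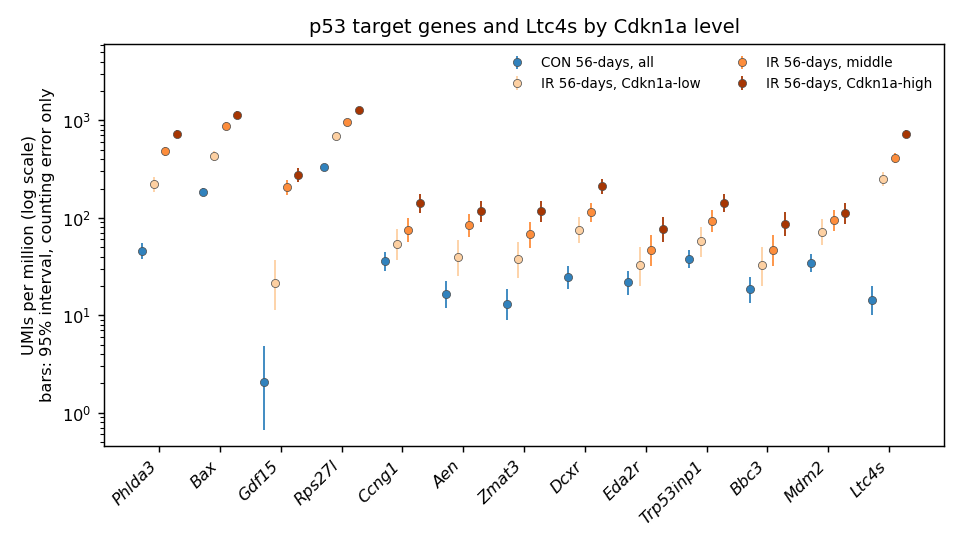
CPM (logarithmic axis) of 12 p53 target genes and Ltc4s in all CON 56-days endothelium and in the low, middle and high cells of IR 56-days, with exact Poisson intervals for counting error. Levels climb from control through low and middle to high, with control to low steps of 4.82-fold for Phlda3 and 2.35-fold for Bax.

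Beyond p53 targets, the genes furthest higher by the naming rule were Cxcl9, Cox6b2, Ltc4s, Ift122, Hspa1a and Rhob. Ltc4s (chromosome 11, 50236461 to 50238616, minus strand), the leukotriene C4 synthase gene, had 153, 274 and 432 UMIs, a ratio of 2.88 (2.39 to 3.49), and was found in 46, 67 and 79 cells. Its level in control endothelium was 14.4 CPM, against 251.7, 412.7 and 725.3 CPM in the 3 groups. Hspa1a, an inducible HSP70 gene, had 77, 152 and 178 UMIs, a ratio of 2.36 (1.80 to 3.12), and Rhob, a small GTPase gene, had 134, 193 and 290, a ratio of 2.21 (1.79 to 2.73). The other 3 leaned on single cells. Cxcl9, an interferon-induced chemokine gene, had 230 UMIs in the high cells, of which 197 came from 1 cell, and its log2 ratio was -0.21 without the richest cell of each group. Cox6b2 had 26 of 62 and Ift122 20 of 56 high-cell UMIs in 1 cell.

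Arterial genes went the other way. Of 18 listed arterial genes 17 had a lower CPM in the high cells and 1 a higher one, and of the 15 measured 0 were higher and 10 lower, with a median log2 ratio of -1.67. Mgp (chromosome 6, 136872435 to 136875823, minus strand), a matrix inhibitor of calcification, had 645, 151 and 58 UMIs in the low, middle and high cells and was 10.9-fold (8.32 to 14.5) higher in low cells. Gja4 (chromosome 4, 127311421 to 127314039, minus strand), the arterial gap junction gene connexin 37, had 138, 39 and 19, a 7.12-fold (4.39 to 12.2) difference. It was found in 39 low, 14 middle and 9 high cells, and with cells thinned to 2000 UMIs in 23.6%, 6.56% and 4.88%. Fbln5, an elastic fibre gene, had 236, 103 and 49 UMIs and was 4.72-fold (3.46 to 6.56) higher in low cells. Eln, the elastin gene, had 172, 111 and 33, Clu (clusterin) 179, 58 and 16, Fbln2 424, 305 and 130, and Sema3g, an arterial semaphorin gene, 154, 78 and 47. Cytl1, a small secreted protein gene, had 171, 26 and 0 UMIs, at least 55.8-fold lower in high cells against a floor of 3 UMIs over the group, but all 171 came from 6 cells.

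Not every arterial gene differed. Hey1, a Notch target, had 52, 51 and 49 UMIs, a ratio of 0.962 (0.638 to 1.45). Sox17, an arterial transcription factor gene, and Cxcl12, a chemokine gene, stayed under the limit with ratios of 0.797 (0.644 to 0.984) and 0.867 (0.790 to 0.951). By cells, 127 of the 368 had at least 3 UMIs over Gja4, Gja5, Hey1, Sema3g, Fbln5 and Stmn2, and 56 of these were low, 36 middle and 35 high. Their Cdkn1a level was 1162 CPM (1083 to 1244), against 1646 CPM (1560 to 1735) in the 176 cells with 0 UMIs of these genes. The arterial-type cells carried more Cdkn1a than the 125 such cells of CON 56-days, at 202.7 CPM (169.5 to 240.5).

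The differences between vessel lists were not tested. Venular genes were lower in high cells, with 14 of 16 listed below and 2 above. Of 8 measured, 4 were lower and 1 higher, a median log2 ratio of -0.67. Nr2f2, the venous transcription factor gene, had 65, 54 and 16 UMIs, a ratio of 0.251 (0.136 to 0.439). Plvap, a fenestral diaphragm gene, had 222, 205 and 74, and Vwf, von Willebrand factor, 159, 102 and 59, ratios of 0.340 and 0.379. Of 14 measured capillary genes 3 were higher and 1 lower, a median of 0.40. Tcf15, a transcription factor gene of capillary endothelium, had 456, 758 and 848 UMIs, a ratio of 1.90 (1.69 to 2.13), Gpihbp1, which anchors lipoprotein lipase, 780, 1316 and 1268, a ratio of 1.66 (1.52 to 1.82), and the nucleoside transporter gene Slc28a2 a ratio of 1.78. Among the abundant capillary genes, Fabp4 and Cd36, which handle fatty acids, had ratios of 0.923 (0.895 to 0.952) and 0.885 (0.810 to 0.966), while Aqp1, a water channel gene, had 1564, 2212 and 1982 UMIs, a ratio of 1.29 (1.21 to 1.38). Against all CON 56-days endothelium, 0 of 15 measured capillary genes were higher in low or in high cells. Of these, 7 were lower in low and 5 in high cells. Of 16 arterial genes, 9 were higher and 0 lower in low cells, and 0 higher and 9 lower in high cells. Over all genes, 10.8% were higher and 17.1% lower in low cells, and 12.4% and 16.5% in high cells.

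**Figure D4:**
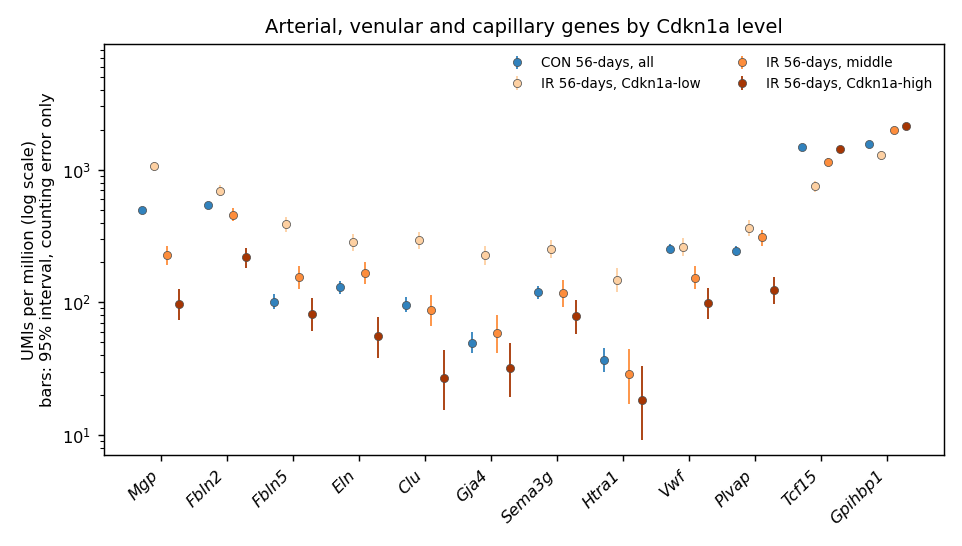
CPM (logarithmic axis) of arterial genes (Mgp to Sema3g), Htra1, venular genes (Vwf, Plvap) and capillary genes (Tcf15, Gpihbp1) in all CON 56-days endothelium and in the low, middle and high cells of IR 56-days, with exact Poisson intervals. Mgp runs from 1061 CPM in low to 97.4 CPM in high cells, and the capillary genes run the other way.

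The split was repeated in the 106 cells with 0 UMIs of 6 arterial and 6 venular genes, 36 low and 35 high, whose Cdkn1a levels were 458.9 and 3226 CPM, a 7.03-fold split against 12.8-fold in all cells. These low and high cells summed to 137278 and 166772 UMIs, so they were less alike in depth than the groups of all cells. Over all 1085 genes measured in that subset, 86 were higher and 83 lower, which is the background for the counts here. There the p53 median was 1.12, with 7 of 8 measured targets higher, 0 lower, where 21 were measured in all cells. Phlda3 had 44 UMIs in these low cells and 124 in the high, a ratio of 2.32 (1.63 to 3.35), and Bax 109 and 227, a ratio of 1.71 (1.36 to 2.17), both smaller than in all cells. Ltc4s had 75 and 144, a ratio of 1.58 (1.19 to 2.12) against 2.88 in all cells. Some p53 targets had larger ratios in this subset than in all cells. Ccng1 had 4 and 30 UMIs, a ratio of 6.17 (2.18 to 24.1), and Gdf15 2 and 81, a ratio of 33.3 (8.94 to 280.0). Btg2 and Plk2 each had 27 and 73, a ratio of 2.23 (1.41 to 3.60). The part of vessel type in the p53 difference was not tested beyond these values. The log2 ratios of Eda2r and Sesn2 were each -0.0051, so no difference in these was detectable at the depth of that subset. For capillary genes the median there was -0.17, with 0 of 12 higher and 1 lower, and Gpihbp1 was at 0.886 (0.760 to 1.03).

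Genes of smooth muscle and of some other cells were higher in the low group. All 5 measured smooth muscle genes were lower in high cells, with the summed list at 1739, 366.0 and 194.8 CPM in the low, middle and high cells. Acta2, smooth muscle actin, had 315, 27 and 8 UMIs, of which 131 came from 1 low cell, and Tagln had 315, 79 and 31. Without the 16 mixed barcodes, which were defined in part by these UMIs, the smooth muscle median log2 ratio was -0.17 in place of -3.64. The arterial median was then -1.85 and the p53 median 1.04. Of the genes furthest lower by the naming rule, Tpm2, a tropomyosin gene of contractile cells, had 105 of its 182 low-cell UMIs in 1 cell, Igfbp5 had 261 of its 316 low-cell UMIs in 1 cell, and Mmrn1, a lymphatic marker, had all 58 in 1 cell. Gkn3 had 79, 18 and 6 UMIs, 47 of the first in 1 cell. The protease gene Htra1 had 90, 19 and 11 UMIs and the interferon-induced Ifi27l2a 411, 264 and 98, spread over 36 and 50 low cells. Haemoglobin UMIs reached 7888 in 1 low barcode and 1004 in 1 high barcode. The lists of macrophage and T cell genes were at or near 0, with 36.2 and 0 CPM in low and 23.5 and 0 in high cells. Pericyte genes summed to 853.7 CPM in low and 186.4 in high cells, and fibro-adipogenic and tenocyte genes to 338.9 and 26.9. Schwann genes went the other way, at 105.3 and 292.1 CPM. The definition of mixed barcodes set no limit on the pericyte list or on the fibro-adipogenic and tenocyte list.

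Mitochondrially encoded transcripts were lower in high cells, with 13 of 13 below and 4 past the 1.5-fold limit, a median log2 ratio of -0.55. The direction was the same in the other libraries, as given below. mt-Atp6, an ATP synthase subunit, had 4754, 4187 and 3077 UMIs, a ratio of 0.661 (0.631 to 0.691), and mt-Co1, a cytochrome oxidase subunit, 2952, 2600 and 1953, a ratio of 0.675 (0.637 to 0.715). In the 106 cells without arterial and venular UMIs, the median mitochondrial share was 2.04% in low and 2.52% in high cells, the opposite order. The part of cell quality in this difference was not tested.

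Stress and immune lists were read against the background of 9.55% higher and 6.7% lower. Of 13 measured immediate early genes, 5 were higher, among them Dusp1 with 135, 239 and 261 UMIs and Jund with 330, 452 and 508, and 1 was lower. That gene was Fos, which had 104, 120 and 47 UMIs, a ratio of 0.461 (0.320 to 0.657). Heat shock genes had 3 of 12 higher and 0 lower. Type I interferon genes had 3 of 22 higher and 1 lower. Isg15, at 161, 282 and 227 UMIs, stayed under the 1.5-fold limit, and the lower gene was Iigp1, at 290, 327 and 179. MHC class I genes had 0 of 13 called, and B2m, its light chain gene, had a ratio of 1.33 (1.22 to 1.44).

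The same gate and ranking were applied to the other libraries, whose cells the rule did not use. IR 24-hours gave 367 low and 367 high cells. Zeros made the groups of the controls unequal, with 385 cells without Cdkn1a UMIs as low and 180 as high in CON 56-days, and 180 and 116 in CON 24-hours. Median UMIs per cell were 3491 in the low and 4029.5 in the high group of CON 56-days, 3984 and 4194 in IR 24-hours, and 3946.5 and 4134.5 in CON 24-hours, so the control groups at 56 days were less alike in depth than those of IR 56-days. Over all measured genes, the shares higher and lower were 3.97% and 4.52% in CON 56-days, 4.47% and 6.57% in IR 24-hours, and 4.29% and 5.58% in CON 24-hours. p53 targets were higher in part of the measured members in each, 8 of 21 in CON 56-days (median log2 ratio 0.44), 16 of 32 in IR 24-hours (0.59) and 9 of 15 in CON 24-hours (0.72), with 1 lower in each. In the same order, mitochondrially encoded genes had medians of -0.36, -0.43 and -0.36, and no measured member had a ratio above 1. Venular medians were -0.62, -1.47 and -0.85. Immediate early genes had 10 of 16, 10 of 17 and 10 of 16 higher and 0 lower. These lists thus went the same way as in IR 56-days. Phlda3 had ratios of 3.01, 1.60 and 5.09 in these libraries and Ltc4s 2.81, 2.41 and 6.93. In CON 56-days Ltc4s fell under the UMI limit for a measured gene, so its ratio there rested on few UMIs and is given as a description only. Cdkn1a itself differed 4.17-fold between the groups of IR 24-hours and 12.8-fold in IR 56-days. High cells had a median of 1 Cdkn1a UMI in CON 56-days and 3 in CON 24-hours, against 17 in IR 24-hours and 12 in IR 56-days. The ranking of the control cells thus rested on few UMIs, and the control splits are not like the irradiated ones.

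Arterial genes separated the libraries more. In IR 24-hours 0 of 16 measured arterial genes were higher and 11 lower, a median log2 ratio of -1.61, close to that of IR 56-days. In CON 56-days 3 were higher and 2 lower of 16 (median 0.15), and in CON 24-hours 0 higher and 5 lower of 14 (-0.24). Gja4 had a ratio of 0.168 in IR 24-hours, 1.03 in CON 56-days and 0.861 in CON 24-hours, beside 0.141 in IR 56-days. Fbln5 had 0.183, 1.14 and 0.547, beside 0.212. Mgp was lower in high cells in every library, at 0.0195, 0.273 and 0.212, beside 0.0918. Whether these ratios differ between irradiated and control libraries was not tested, since each group is 1 library. RNA of other cells also differed between the groups. In IR 24-hours fibro-adipogenic and tenocyte genes had 2231 CPM in low and 201.6 in high cells, and pericyte genes 2466 and 814.1. Those lists had 988.3 and 31.9, and 438.0 and 548.9, in CON 56-days, and 43.3 and 85.7, and 1010 and 1596, in CON 24-hours. The part of such RNA in the arterial ratios was not tested.

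**Figure D5:**
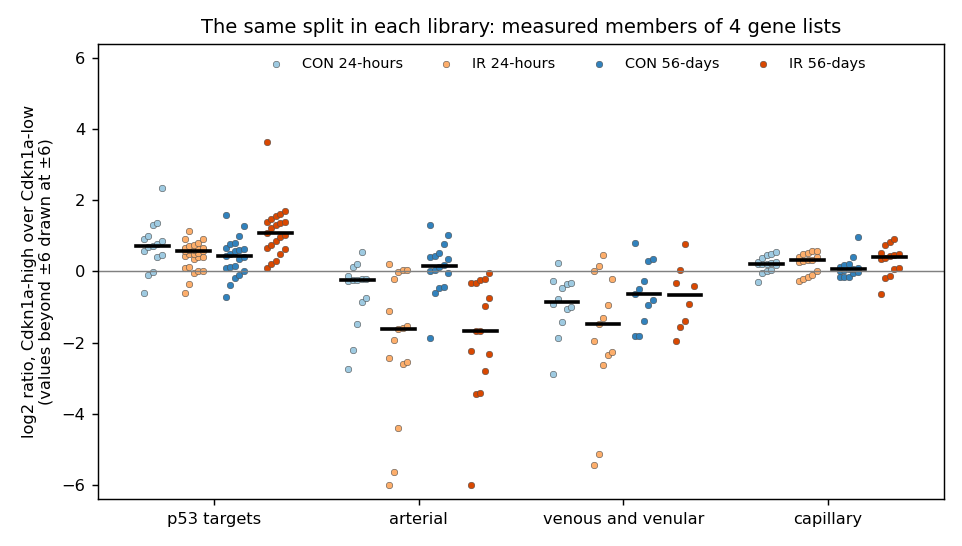
Log2 ratios of Cdkn1a-high over Cdkn1a-low cells for each measured member of 4 gene lists (points) in each library (colours), with black bars at the medians. The p53 medians are above 0 in all 4 libraries, and the arterial medians are -1.67 and -1.61 in IR 56-days and IR 24-hours and 0.15 and -0.24 in CON 56-days and CON 24-hours.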

How the data were processed

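Counts per gene and barcode were made by the authors with Cell Ranger 5.0.0 on mm10, per the submitters' processing notes, and the deposited matrices hold raw UMI counts for 32285 genes. Library totals were 4715202 (IR 56-days), 8842963 (CON 56-days), 10121978 (IR 24-hours) and 6339993 UMIs (CON 24-hours). Deposited counts were summed over the cells of a group and scaled to the group's total UMIs. Ratios carry exact conditional binomial intervals, levels exact Poisson intervals, at 95%. Log2 ratios used a prior count of 0.5. Python 3.11.15, numpy 2.4.6, scipy 1.17.1, pandas 2.3.3 and matplotlib 3.10.9 were used, and the calculation was tested on simulated data. Ambient RNA was not removed and doublets were not called. B cell barcodes had at least 3 UMIs of B cell markers and 0 UMIs of the 4 endothelial gate genes.

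Named genes were the 12 furthest higher and 12 furthest lower by the interval bound nearest to 1 among measured genes, leaving out Cdkn1a, the gate genes, listed markers of other cells, gene models without a proper name, antigen receptor and sex-chromosome genes, and haemoglobin, ribosomal and mitochondrial transcripts. Added were 2 to 4 leading members of each list described, and 9 fixed genes (Mdm2, Ccng1, Phlda3, Gdf15, Eda2r, Bax, Cdkn2a, Cdkn1b, Cdkn1c). Other members of the p53, arterial, venular and capillary lists, and single genes named besides, were chosen after their values were seen. Groups followed the sample titles. The members and lists were chosen with earlier results of these data known. A further gene that the naming rule could add is not reported here.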

Additional observations from a re-analysis of the deposited data

Results flagged for a closer look

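A few genes differed at least 1.5-fold between Cdkn1a-high and Cdkn1a-low endothelium in IR 56-days and at least 1.5-fold the opposite way in another library. Fos was lower in the high cells of IR 56-days (log2 ratio -1.11) and higher in those of CON 56-days (0.64) and IR 24-hours (0.89). Alpl, the tissue-nonspecific alkaline phosphatase gene of the arterial list, was lower in IR 56-days (-0.74) and higher in CON 56-days (0.78). Igfbp5 was lower in IR 56-days (-5.19, mostly 1 cell) and higher in CON 56-days (1.46). The contractile genes Tpm2 and Acta2 were lower in IR 56-days (-4.39 and -5.18) and higher in CON 24-hours (0.76 and 1.74). In IR 56-days a large part of the low-cell UMIs of each gene came from 1 cell, as given above. In CON 24-hours 1 high barcode held 316 smooth muscle UMIs, while the median high barcode held 0. None of these differences between libraries was tested.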

How the results depend on the processing

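The split was repeated under 15 other settings, 2 of them chosen after seeing the data. Counts of genes higher and lower (402 and 282) became 162 and 151 with each cell thinned to 2000 UMIs and ranked again. They were 1003 and 826 with a minimum of 20 UMIs per gene, 137 and 125 with 100, and 86 and 83 in the 106 cells without arterial and venular UMIs, where fewer genes were measured. Genes measured in these settings numbered 2041, 7266, 2268 and 1085. The main split had also called 71 of the 162 and 71 of the 151 thinned genes. In the 106 cells it shared 24 of the 86 and 10 of the 83. The p53 median was 1.49 with the top and bottom 25% of cells and stayed between 0.97 and 1.30 in the other settings. The arterial median ran from -0.91, over 1 gene in the cells without arterial and venular UMIs, to -1.96. Of 55 called genes in the text, 6 changed sign somewhere. In the cells without arterial and venular UMIs, log2 ratios were -0.0051 for both Eda2r and Sesn2, -0.17 for Gpihbp1, -0.10 for Slc28a2 and 0.095 for mt-Atp6. Several other genes dropped under 1.5-fold without a change of sign: thinned, Trp53inp1 (0.35), Rps27l (0.55), Dusp1 (0.51), Gpihbp1 (0.51), Fos (-0.49) and Nr2f2 (-0.48), and in the cells without arterial and venular UMIs, Ei24 (0.22), Chek2 (0.22), Hspa1a (0.36) and Tcf15 (0.25). Mdm2 and Btg2, at 1.55 and 1.58, lay near the limit and crossed it in 5 and 4 settings. Cxcl9 was at -0.98 (thinned), -0.48 (ties split by barcode), -0.20 (top and bottom 25%), -0.43 (6 gate UMIs), -0.37 (10% mitochondrial limit), -1.09 (without the 5% of cells with most UMIs), -1.43 (no arterial and venular UMIs), -0.21 (without the richest cell) and -0.58 (without mixed barcodes). The haemoglobin list turned to 4.91 with 0 UMIs of 7 genes of other cell types and 4.79 without the 5% of cells with most UMIs. The cause was not tested. No paired analysis was possible because each group is 1 library. Depth limits genes such as Cdkn2a and Ckap2, and no setting replaces the missing replicates.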
